A study of Homo sapiens with 8 samples.

Results

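The fatty acid-binding proteins FABP3, FABP4, FABP5, FABP6 and FABP7, the fatty acid translocase CD36 and the peroxisome proliferator-activated receptors PPARA, PPARD and PPARG were examined in MDA-MB-231, a human line of basal-like breast cancer without the oestrogen receptor, after silencing of HMGA1. Every probe set that the platform annotation gave to 1 of these 9 genes was taken, which came to 30 of the 54613 probe sets tested and 9 of 19775 genes. The genes were selected on log2 fold changes and signal levels from this same contrast, so the differences between the groups are given below for them as a description with no p-value, and calls over their probe sets are only counted, beside the share over all probe sets. RNA was hybridised to 8 Affymetrix hgu133plus2 arrays, 4 from cells transfected with a control siRNA (siCTRL) and 4 from cells transfected with an siRNA against HMGA1 (siHMGA1), 72 h after transfection. Both groups were the same line and carried a transient siRNA transfection, so the controls share the transfection itself, and only 1 line and 1 time point were measured. The arrays of a group are named biological replicates, without a description of how the cultures were kept apart, so that a p-value here covers only the variation among these arrays.

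Fatty acid-binding proteins are small cytoplasmic carriers that hold a long-chain fatty acid in a closed barrel and move it between membranes, lipid droplets, mitochondria and the nucleus. CD36 is a membrane receptor that helps fatty acids enter the cell. PPARs are nuclear receptors for which fatty acids and their derivatives are ligands. They bind DNA as heterodimers with a retinoid X receptor at repeats of the half-site AGGTCA, and FABP4 and FABP5 can hand ligands to PPARG and PPARD. PPARG drives adipocyte differentiation, in which FABP4 is a classical target gene, and PPARA drives fatty acid oxidation in liver.

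The HMGA1 protein binds the minor groove of AT-rich DNA, so the start regions of the receptor genes are shown for their base composition. They are taken from RefSeq (GRCh38.p14), run from 250 bases before to 50 bases after an annotated start, and have runs of 6 or more A or T in capitals. For each receptor gene the window with the highest share of A and T was taken. These are chr22:46150276-46150575 for PPARA, chr6:35342308-35342607 for PPARD and chr3:12351167-12351466 for PPARG, all on the plus strand.
PPARA: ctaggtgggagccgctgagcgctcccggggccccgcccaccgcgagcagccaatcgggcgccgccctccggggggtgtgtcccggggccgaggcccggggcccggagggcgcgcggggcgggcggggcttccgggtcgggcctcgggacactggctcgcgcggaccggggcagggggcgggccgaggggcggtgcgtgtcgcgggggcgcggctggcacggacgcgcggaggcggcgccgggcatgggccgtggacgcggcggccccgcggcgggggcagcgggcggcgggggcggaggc
PPARD: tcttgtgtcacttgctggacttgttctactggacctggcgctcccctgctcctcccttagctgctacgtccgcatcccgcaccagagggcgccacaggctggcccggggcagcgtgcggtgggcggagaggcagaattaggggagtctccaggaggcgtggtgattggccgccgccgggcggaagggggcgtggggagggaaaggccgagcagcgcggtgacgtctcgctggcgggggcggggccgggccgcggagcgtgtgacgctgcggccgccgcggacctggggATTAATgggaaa
PPARG: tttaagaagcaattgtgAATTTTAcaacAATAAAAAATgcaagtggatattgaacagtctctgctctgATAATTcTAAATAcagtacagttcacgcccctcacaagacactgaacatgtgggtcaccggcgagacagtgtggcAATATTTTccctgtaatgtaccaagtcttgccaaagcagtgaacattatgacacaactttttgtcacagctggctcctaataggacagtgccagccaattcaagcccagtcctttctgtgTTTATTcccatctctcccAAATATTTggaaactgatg
The PPARA window held 14.3% A and T and no such run, the PPARD window 29.7% and 1 run, and the PPARG window 59.0% and 7 runs. Over all 35116 windows of the table the median was 41.3%, the quartiles were 32.0% and 53.0%, and 61.2% of windows held a run of 6 or more.

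Of the 9 genes, 7 had windows in the table, 18 in all. Both PPARA windows were poor in A and T, at 13.3% and 14.3%. The 6 PPARG windows spanned 43.3% to 59.0%, and the 6 CD36 windows 56.3% to 65.0%. FABP3 had 1 window with 32.0%, FABP6 1 with 42.3% and FABP7 1 with 47.3%. The half-site AGGTCA, searched on both strands, was found in 3 of the 18 windows, all of PPARG, against 13.8% of all windows in the table. Windows of close starts overlap, and 2 of these 3 (chr3:12288810-12289109 and chr3:12288820-12289119) hold the same half-site while the other one holds 2, so the matches lie at 3 distinct positions. The other 3 PPARG windows, including the one shown, did not hold these letters. Such a match describes letters only, and binding of HMGA1 or of a PPAR was not measured on these arrays.

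**Figure D1:**
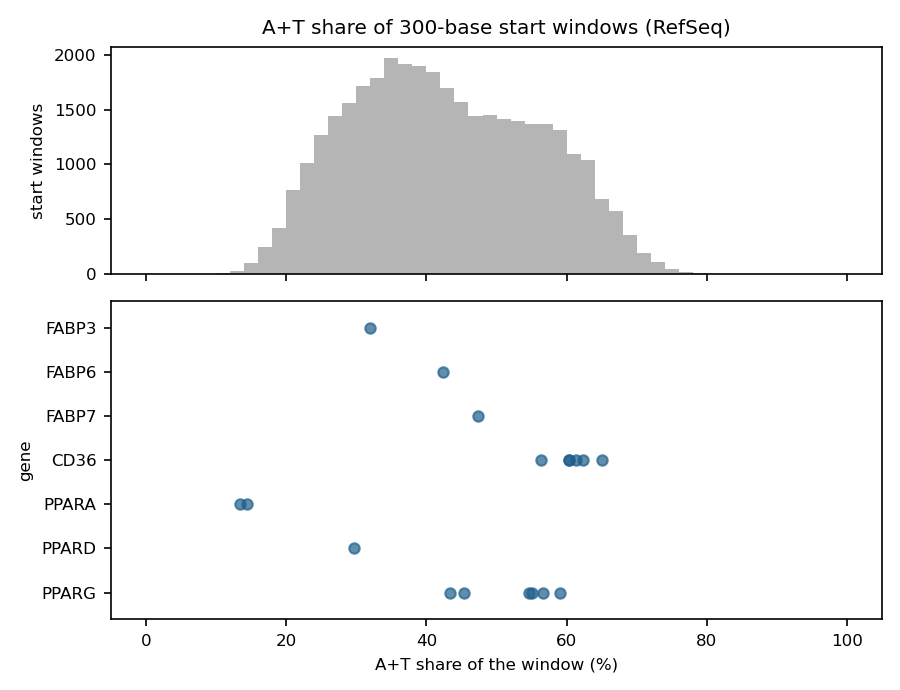
Share of A and T (horizontal axis, %) in windows of 300 bases around annotated starts, as a histogram over all RefSeq windows (upper panel, number of windows) and as 1 point per window of each gene (lower panel). The PPARA windows lie at 13.3% and 14.3%, near the lower end of the histogram, while the CD36 windows lie at 56.3% to 65.0%.

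The arrays measured HMGA1 as their labels state. Its brighter probe set, 206074_s_at, had log2 signals of 12.62, 12.84, 12.69 and 12.85 in siCTRL and of 10.11, 10.37, 10.29 and 10.57 in siHMGA1. The groups did not overlap, and the log2 fold change was -2.42 with a standard error of 0.0981 (limma, adjusted p = 5.20e-08). The second HMGA1 probe set, 210457_x_at, was 2.15 above background in siCTRL and 1.21 above it in siHMGA1, also without overlap, with a log2 fold change of -0.90 (limma, adjusted p = 0.00107). Array means lay between 6.57 and 6.58, and correlations between arrays of a group (0.995 to 0.998 across probe sets) were above those between groups (0.989 to 0.992). Depth has no meaning for arrays, where the number of arrays limits the precision.

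Because these values carry no detection call, a background level was set at the 95th percentile of 107 probe sets of olfactory receptor genes, which most tissues do not transcribe. It was 6.09 in siCTRL and 6.13 in siHMGA1 on the log2 scale, and 49.96% of all probe sets were above it in siCTRL. Of the 30 probe sets, 11 were above this level in siCTRL and 11 in siHMGA1. They belonged to FABP4, FABP5, PPARA, PPARD and PPARG. No probe set of FABP3, FABP6, FABP7 or CD36 reached it. The 6 listed markers of mesenchymal-type basal-like lines, among them VIM and CD44, were all above it. Of 9 listed luminal breast markers, 6 were above it as well, so a reading above background does not separate these types. The log2 fold change is siHMGA1 minus siCTRL throughout. Distances from background subtract the same level from every probe set of a group. Like the signals themselves, they do not rank the RNA amounts of different genes.

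**Figure D2:**
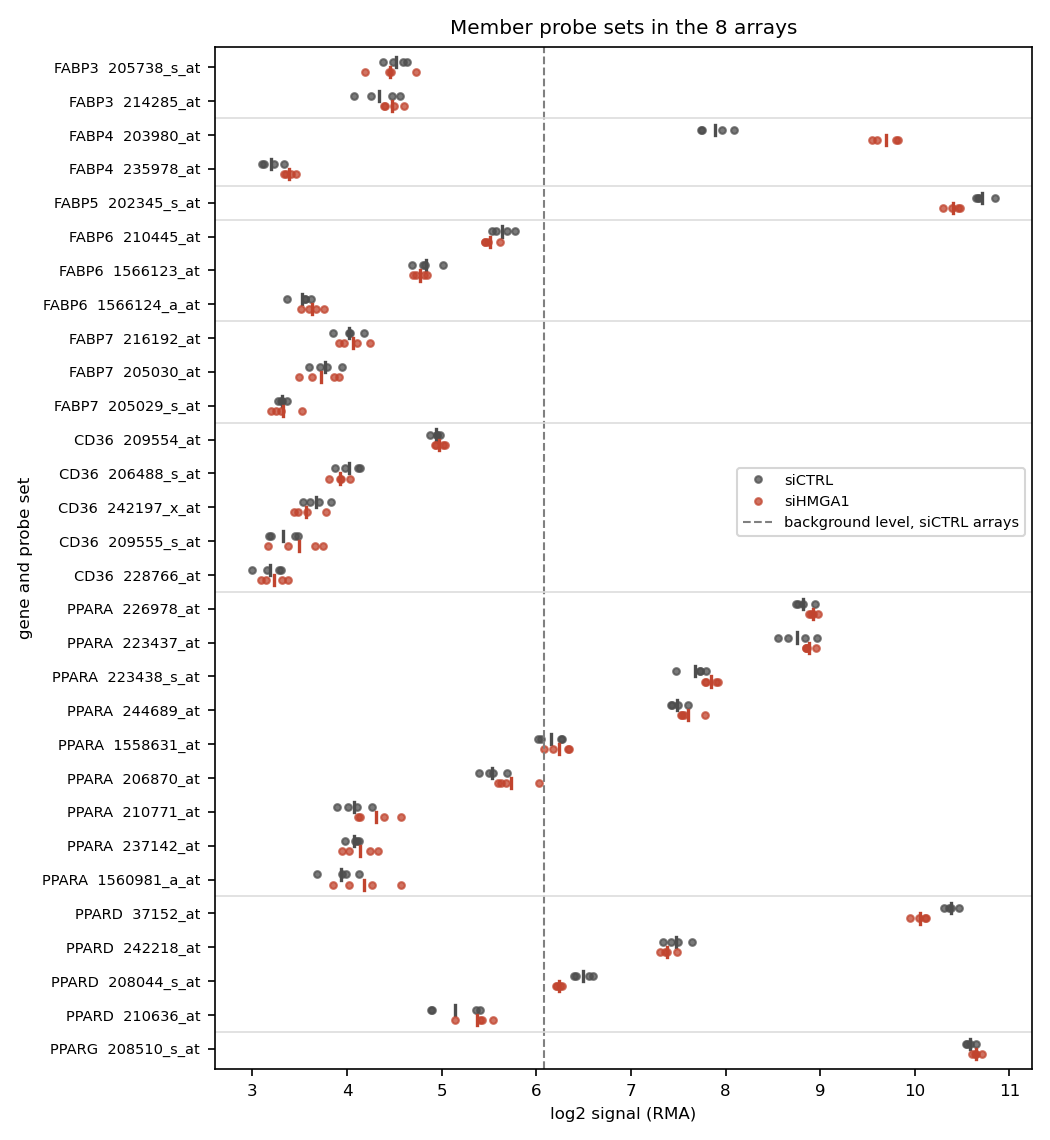
Log2 signal (horizontal axis, RMA) of the 30 probe sets (vertical axis) in the 4 siCTRL and 4 siHMGA1 arrays, with a point for each array and a short bar for each group mean. The dashed line is the siCTRL background level of 6.09, and the brighter FABP4 probe set is the one whose groups lie far apart, at 7.75 to 8.09 and 9.55 to 9.82.

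FABP4, the adipocyte fatty acid-binding protein, was the member with the largest difference. Its probe set 203980_at read 8.09, 7.75, 7.75 and 7.97 in siCTRL and 9.82, 9.55, 9.80 and 9.60 in siHMGA1. Every siHMGA1 array was above every siCTRL array, with a gap between the groups that was wider than the spread within either. Mean signals were 7.89 ± 0.169 in siCTRL and 9.69 ± 0.136 in siHMGA1 (SD, n = 4 each). The log2 fold change was 1.81 (standard error 0.0963), a signal 3.50-fold higher in siHMGA1, and it lay between 1.76 and 1.92 under all alternatives in which the probe sets were refitted. FABP4 stood 1.80 above the background level in siCTRL and 3.57 above it in siHMGA1. Counted from the highest log2 fold change, FABP4 was number 7 of 19775 genes.

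The second FABP4 probe set, 235978_at, did not show this. It read 3.12, 3.34, 3.22 and 3.10 in siCTRL and 3.41, 3.35, 3.46 and 3.33 in siHMGA1, so that the groups overlapped. Relative to background it stood at -2.89 in siCTRL and -2.74 in siHMGA1, and the difference of 0.19 (standard error 0.0718) is one between readings under background.

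FABP5, the epidermal fatty acid-binding protein, was lower in siHMGA1. Its only probe set, 202345_s_at, read 10.67, 10.68, 10.64 and 10.85 in siCTRL and 10.46, 10.30, 10.39 and 10.47 in siHMGA1. The groups did not overlap. Mean signals were 10.71 ± 0.0925 in siCTRL and 10.41 ± 0.0788 in siHMGA1 (SD, n = 4 each), and the log2 fold change was -0.30 (standard error 0.0716), which leaves 0.811 of the control signal. In contrast to FABP4, whose brighter probe set stood 1.80 above background in siCTRL, the FABP5 probe set was far above it in both groups. Probe sets whose names end in _s_at can match several transcripts, and FABP5 has pseudogenes of similar sequence, so its signal cannot be told apart from theirs.

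The remaining carriers were not detectable on these arrays. FABP3, the heart and muscle form, had 2 probe sets with readings of 4.08 to 4.73 and log2 fold changes of -0.06 and 0.13. FABP6, the ileal bile acid-binding protein, had 3 with readings of 3.36 to 5.78 and differences of -0.13 to 0.11. The highest of these, 210445_at, read 5.78, 5.53, 5.57 and 5.69 in siCTRL and 5.61, 5.46, 5.49 and 5.46 in siHMGA1, still under the background level in every array. FABP7, the brain form, had 3 probe sets with readings of 3.19 to 4.24 and differences of -0.04 to 0.04. In none of these 8 probe sets were the groups apart.

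CD36 was measured by 5 probe sets, all under background in both groups. The brightest, 209554_at, read 4.98, 4.88, 4.95 and 4.95 in siCTRL and 4.94, 4.93, 5.01 and 5.03 in siHMGA1. The groups overlapped, and the difference was 0.04 (standard error 0.0616). The other 4 probe sets read between 2.99 and 4.13 with differences of -0.10 to 0.16, again overlapping. A change of CD36 was therefore not detectable at these signal levels.

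Among the receptors, PPARD, the widely expressed family member, had a lower signal in siHMGA1 on the probe sets above background. The brightest, 37152_at, read 10.31, 10.46, 10.36 and 10.39 in siCTRL and 9.95, 10.11, 10.04 and 10.11 in siHMGA1. The groups did not overlap, with means of 10.38 ± 0.0632 and 10.05 ± 0.0784 (SD, n = 4 each). The log2 fold change was -0.33 (standard error 0.0673), which leaves 0.796 of the control signal. A dimmer probe set, 208044_s_at, read 6.42, 6.60, 6.40 and 6.56 in siCTRL and 6.25, 6.21, 6.22 and 6.28 in siHMGA1. It too had groups that did not overlap, with a log2 fold change of -0.26 (standard error 0.0674), but it was only 0.41 above background in siCTRL and 0.11 above it in siHMGA1.

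The other PPARD probe sets differed from these. The probe set 242218_at read 7.50, 7.65, 7.34 and 7.43 in siCTRL and 7.31, 7.38, 7.36 and 7.49 in siHMGA1, and its groups overlapped, with a difference of -0.09 (standard error 0.0788). The probe set 210636_at lay under background, at 5.41, 4.89, 4.89 and 5.37 in siCTRL and 5.14, 5.54, 5.42 and 5.40 in siHMGA1. Its difference of 0.24 (standard error 0.132) had the opposite sign and its siCTRL arrays were far apart from each other. PPARD was thus lower on 3 of 3 probe sets above background, with groups apart on 2 of them.

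PPARG, the adipogenic receptor, was well above background and nearly level. Its only probe set, 208510_s_at, read 10.65, 10.55, 10.58 and 10.54 in siCTRL and 10.71, 10.64, 10.65 and 10.61 in siHMGA1. The groups overlapped through the first siCTRL array. Mean signals were 10.58 ± 0.0496 in siCTRL and 10.65 ± 0.0431 in siHMGA1 (SD, n = 4 each), with a log2 fold change of 0.07 (standard error 0.0614).

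PPARA, the receptor of fatty acid oxidation, had 9 probe sets, of which 5 were above background. The brightest, 226978_at, read 8.95, 8.75, 8.82 and 8.77 in siCTRL and 8.90, 8.88, 8.98 and 8.93 in siHMGA1. Here the siHMGA1 arrays lay in the upper part of the control range or just above it, and the difference was 0.10 (standard error 0.0670). The probe set 223437_at read 8.97, 8.66, 8.84 and 8.56 in siCTRL and 8.85, 8.86, 8.95 and 8.86 in siHMGA1, a difference of 0.12 (standard error 0.0883). The probe set 223438_s_at read 7.73, 7.48, 7.79 and 7.73 in siCTRL and 7.78, 7.92, 7.90 and 7.80 in siHMGA1, a difference of 0.17 (standard error 0.0798) in which only the lowest siHMGA1 array fell within the control range. For 244689_at the difference was 0.11 (standard error 0.0765), and for 1558631_at, at the background level, it was 0.09 (standard error 0.0881). The 4 probe sets under background read between 3.69 and 6.03 with differences of 0.06 to 0.24. All 9 differences were above 0, and 8 of 9 were without siHMGA1 replicate 2, but the groups overlapped on each probe set. Probe sets of 1 gene share its RNA and are not separate measurements of the condition.

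**Figure D3:**
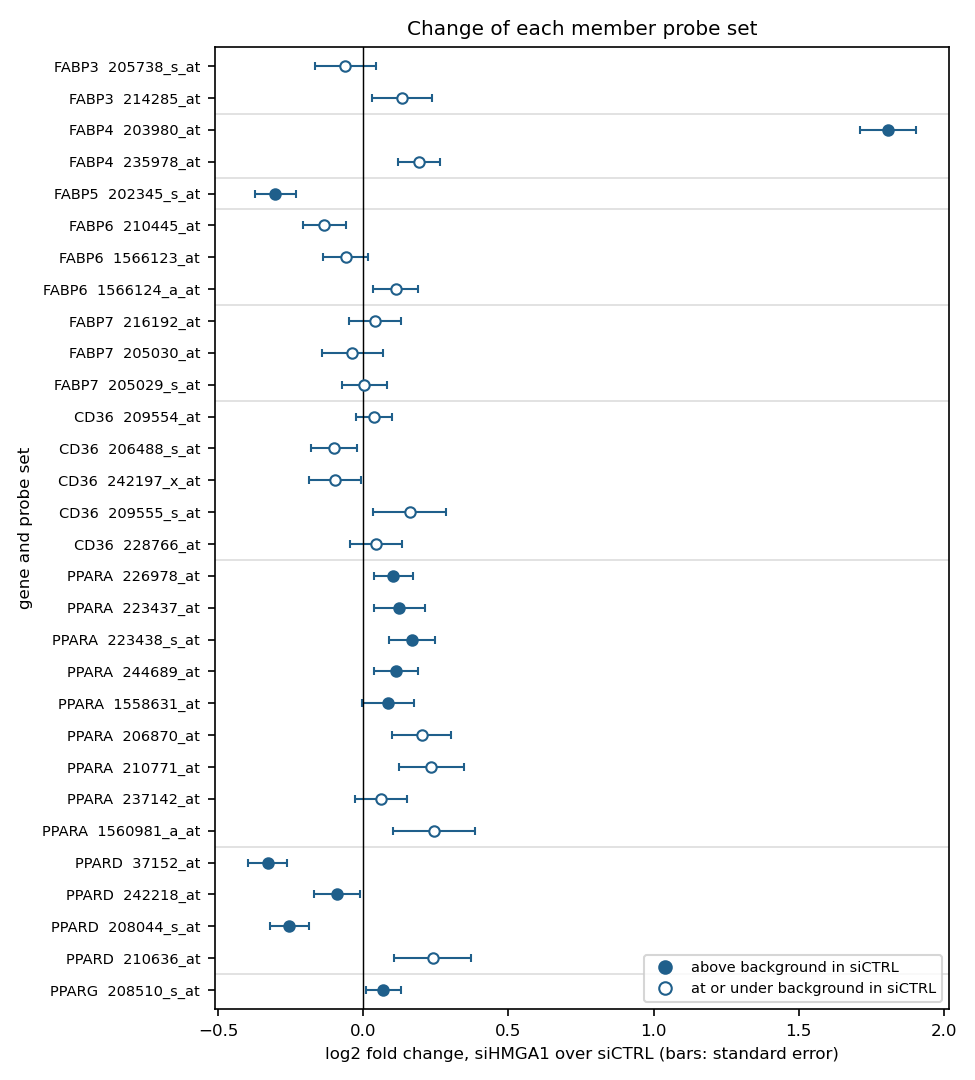
Log2 fold change of siHMGA1 over siCTRL (horizontal axis) for each of the 30 probe sets, with the standard error from limma as a bar. Filled points were above background in siCTRL, and the brighter FABP4 probe set at 1.81 lies apart from the other points, which span -0.33 to 0.24.

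Counted over the 30 probe sets, 1 was called higher (FABP4 203980_at), by limma across the whole array at an adjusted p under 0.05, where 11.7% of all probe sets tested were called higher. Lower calls came to 3 (FABP5 202345_s_at and PPARD 37152_at and 208044_s_at), where 10.4% of all were called lower. The groups did not overlap for the same 4 probe sets, against 13.6% of all probe sets apart with siHMGA1 higher and 11.9% with siHMGA1 lower. Nothing is read from these counts, since the genes were chosen with this contrast in view. The other 26 had differences of -0.13 to 0.24. The median difference was 0.07 over the 30 probe sets and 0.01 over all probe sets. Without siCTRL replicate 2, a second probe set was called higher, the FABP4 probe set under background. Centring the arrays on housekeeping genes moved the median of all genes from 0.01 to 0.12. On that scale FABP5 stood at -0.19 and PPARD 37152_at at -0.22, the latter the only lower call left, and 7 probe sets were called higher. Of all 19775 genes, 5928 were called higher and 2050 lower on that scale, against 3124 and 2904 before centring. The housekeeping genes themselves differed between the groups before centring. Of 9 measured, 1 was called higher and 2 lower, with differences of -0.64 to 0.18 and a median of -0.04. In whole cultures, fewer cells expressing a gene and less RNA per cell cannot be told apart.

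The 5 genes whose profile over the 8 arrays was closest to that of FABP4 were KBTBD8, an adaptor of a ubiquitin ligase, DNAH12, an axonemal dynein heavy chain, ABCG2, a drug efflux transporter, GDPD1, a glycerophosphodiesterase, and TMEM156, a membrane protein. Closeness was measured as the root mean square difference of the log2 values, each less its siCTRL mean. It was 0.162 for KBTBD8, 0.165 for DNAH12, 0.168 for ABCG2, 0.181 for GDPD1 and 0.199 for TMEM156. ABCG2 read 9.60, 9.56, 9.56 and 9.52 in siCTRL and 11.22, 11.24, 11.22 and 11.19 in siHMGA1, which is tighter within each group than FABP4. A profile of this kind is mostly the size of the group difference, and TMEM156 was represented by a probe set named _x_at, which can match several transcripts. Represented by its brightest probe set of another kind, TMEM156 had a difference of 0.15.

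Other intracellular lipid-binding proteins, relatives of the FABPs that carry fatty acids or retinoids, did not pass the test. Of 11 listed, 7 were measured and 0 were called in either direction, where 15.8% of all genes were called higher and 14.7% lower (limma over all genes at an adjusted p under 0.05, with the brightest probe set for each gene). At an unadjusted p under 0.05, 1 was higher, and the methods' t-test called 0. Only CRABP2, which carries retinoic acid, at 1.15 above background, and RBP5, which binds retinol, at 0.16 above it, reached background in siCTRL. Their differences were 0.02 and -0.15. FABP1, the liver form, and FABP2, the intestinal form, were under background.

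Partners and coregulators of the PPARs had calls in both directions. Of 14 measured of 17 listed, 2 were called higher and 2 lower, near the 15.8% higher and 14.7% lower over all genes, with a median difference of 0.08 beside 0.01 over all genes. RXRA, the main PPAR partner, read 9.93, 9.79, 9.78 and 9.88 in siCTRL and 9.92, 10.07, 9.93 and 9.95 in siHMGA1. The groups overlapped, and the difference of 0.12 did not pass the test (limma, adjusted p = 0.167). A second RXRA probe set above background, 202426_s_at, had a difference of -0.07. PPARGC1A, a coactivator of mitochondrial genes, read 6.91, 6.54, 6.96 and 6.67 in siCTRL and 6.97, 7.22, 7.54 and 7.11 in siHMGA1. Its siHMGA1 arrays were all higher, by 0.44 on the log2 scale (limma, adjusted p = 0.0192), and the call was lost without siCTRL replicate 2 (0.0544) or 4 (0.0515), either of which left 1 partner called higher. It was also lost with averaged probe sets (0.21, adjusted p = 0.0570) and by the methods' t-test (adjusted p = 0.0946). HDAC3, the deacetylase of corepressor complexes, rose by 0.26. TBL1XR1, which exchanges corepressors for coactivators, fell by 0.44 on its brightest probe set (limma, adjusted p = 6.26e-05), and of its other probe sets above background, 3 had differences of -0.58 to -0.26 and 222634_s_at one of 0.00. NCOA1, a steroid receptor coactivator, fell by 0.38 on its brightest probe set. Of its other probe sets above background, 209107_x_at and 210249_s_at each had a difference of -0.15. The dimmest, 209105_at, at 0.46 above background in siCTRL, had one of 0.27.

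Of 30 measured among 37 listed target genes of the PPARs, 10 were called higher and 2 lower, with a median difference of 0.13. The count called higher was 8 to 12 with an array left out and 7 to 15 over all alternatives. Over all genes, 15.8% were called higher and 14.7% lower, with a median difference of 0.01. The 10 included CPT1A, SLC25A20 and CPT2 of the carnitine shuttle, which brings long-chain fatty acids into mitochondria. Enzymes of fatty acid oxidation on the same list that were not called included ACADM at 0.00, ACADVL at 0.05, HADHA at 0.11, HADHB at 0.17, HADH at -0.17 and ACADS at -0.12. CPT1A, which attaches carnitine at the outer membrane, read 9.92, 10.05, 9.92 and 9.84 in siCTRL and 10.37, 10.31, 10.30 and 10.32 in siHMGA1. It rose by 0.39 (limma, adjusted p = 3.79e-04). SLC25A20, the carrier across the inner membrane, read 8.87 to 9.11 in siCTRL and 9.58 to 9.74 in siHMGA1, a rise of 0.72 (limma, adjusted p = 1.27e-05). CPT2, which releases the fatty acid inside, read 9.27, 8.88, 9.12 and 8.98 in siCTRL and 9.55, 9.57, 9.74 and 9.70 in siHMGA1, a rise of 0.58. The groups did not overlap for any of the 3.

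PEX11A, which promotes the division of peroxisomes, rose by 0.46 and the thiolase ACAA2 by 0.29. Further probe sets of ACAA2 above background did not show this, with differences of -0.01 for 241114_s_at and 0.05 for 202002_at. The enzymes ECH1 and ACAA1 had differences of 0.25 and 0.20 whose calls were lost in 5 and 7 of the 8 fits that left out 1 array. CPT2, PEX11A, ACAA2, ECH1 and ACAA1 were singled out after their values were seen. Also higher were AQP3, an aquaglyceroporin, by 0.92 and TXNIP, an inhibitor of thioredoxin, by 0.58. The other AQP3 probe sets, 39249_at and 203747_at, had differences of 0.47 and 0.43, and with averaged probe sets AQP3 was at 0.61. OLR1, a scavenger receptor, was called as well but lay under background in both groups, with means of 4.30 and 4.97.

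ANGPTL4, an inhibitor of lipoprotein lipase and a PPAR target in many tissues, moved the other way. It read 8.47, 8.36, 8.36 and 8.42 in siCTRL and 7.95, 7.82, 7.85 and 7.85 in siHMGA1, without overlap, and fell by 0.54 (limma, adjusted p = 2.46e-05). A second ANGPTL4 probe set, 223333_s_at, at 0.59 above background, had a difference of -0.18 that did not pass the test (limma, adjusted p = 0.121). UCP2, a mitochondrial carrier, was lower by 0.56 (limma, adjusted p = 0.00420), though siCTRL replicate 1 lay within the siHMGA1 range. Its second probe set, 208997_s_at, at 2.39 above background, had a difference of -0.41 that did not pass the test (limma, adjusted p = 0.137). PDK4, a kinase that spares glucose, and PLIN2, the common lipid droplet coat protein, are widely used PPAR targets. Their differences of 0.21 and 0.14 did not pass the test (limma, adjusted p = 0.115 and 0.160), and both passed without siCTRL replicate 1 (0.0141 and 0.0230). The PPAR target list was thus split between genes that rose, genes that fell and 18 that were not called.

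**Figure D4:**
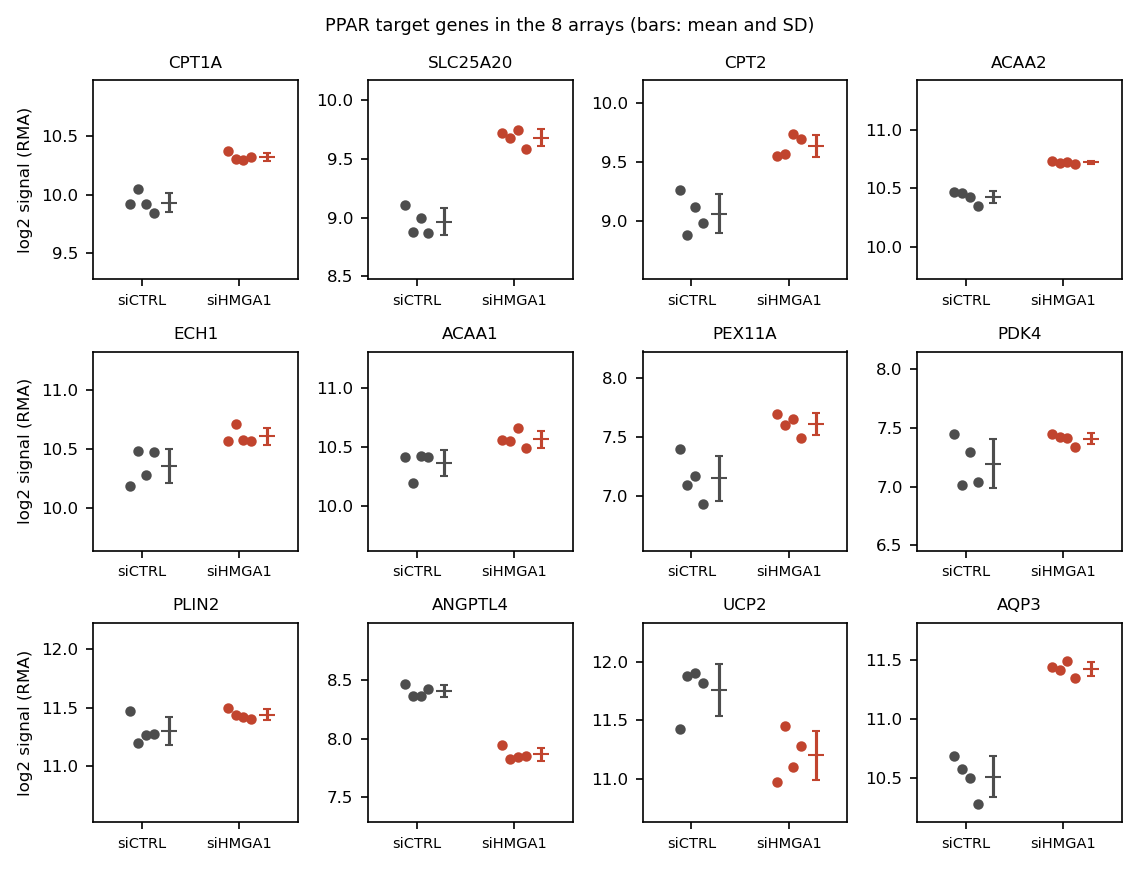
Log2 signal (vertical axis, RMA, each panel spanning the same range of log2 units) of 12 PPAR target genes in the 4 siCTRL and 4 siHMGA1 arrays, with the group mean and SD beside the points. CPT1A, SLC25A20 and CPT2 lie higher in every siHMGA1 array, while ANGPTL4 lies lower in every one.

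For uptake, storage and lipolysis of fatty acids, 7 of 23 measured genes were called higher and 4 lower, with a median difference of 0.04. The shares over all genes were 15.8% higher and 14.7% lower. LPIN1, a phosphatidate phosphatase of triglyceride synthesis, rose by 0.69 (limma, adjusted p = 1.63e-04) and the fatty acid transporter SLC27A1 by 0.43. AGPAT2, an acyltransferase of the same pathway, fell by 0.51. LIPE, the hormone-sensitive lipase that FABP4 binds in adipocytes, read 6.54, 6.60, 6.16 and 6.23 in siCTRL and 5.95, 6.28, 5.89 and 5.77 in siHMGA1. Relative to background it stood at 0.30 in siCTRL and -0.15 in siHMGA1, the groups overlapped, and its call (limma, adjusted p = 0.0243) was lost in 5 of the 8 fits that left out 1 array and with averaged probe sets (-0.24). Without siHMGA1 replicate 1, 2 genes of this list were called lower.

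By limma, fatty acid synthesis had 3 of 15 genes called higher (15.8% over all genes) and 0 called lower (14.7% over all genes). The median difference of the list was 0.12. At an unadjusted p under 0.05, 2 of its genes were lower, and the methods' t-test called 0 lower. ME1, which supplies NADPH, rose by 0.54 (limma, adjusted p = 6.03e-04) and the acetyl-CoA carboxylase ACACA by 0.33, although a second ACACA probe set above background, 214358_at, had a difference of -0.11. The call of MLYCD, which degrades malonyl-CoA, was lost in 6 of the 8 fits without 1 array and with averaged probe sets (0.14), and its second probe set above background, 230530_at, had a difference of -0.05. A gene of the list was called lower without siCTRL replicate 1 and without siCTRL replicate 2, 1 in each.

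Of the 22 regulators of adipocyte differentiation, 3 were called higher and 2 lower, with a median difference of -0.02. Over all genes, 15.8% were called higher and 14.7% lower. KLF5 and KLF15, which promote adipogenesis, rose by 0.74 and 0.72, and FOXO1, a forkhead factor that represses PPARG, rose by 0.69. With averaged probe sets, one of which was at background, KLF15 was at 0.40. TLE3, a PPARG coregulator in mouse adipocytes, fell by 0.48. HES1, a Notch target, fell by 0.43 on its brightest probe set and its difference was -0.79 on a second, 203395_s_at, while the third, 203393_at, stood at -2.53 relative to background.

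**Figure D5:**
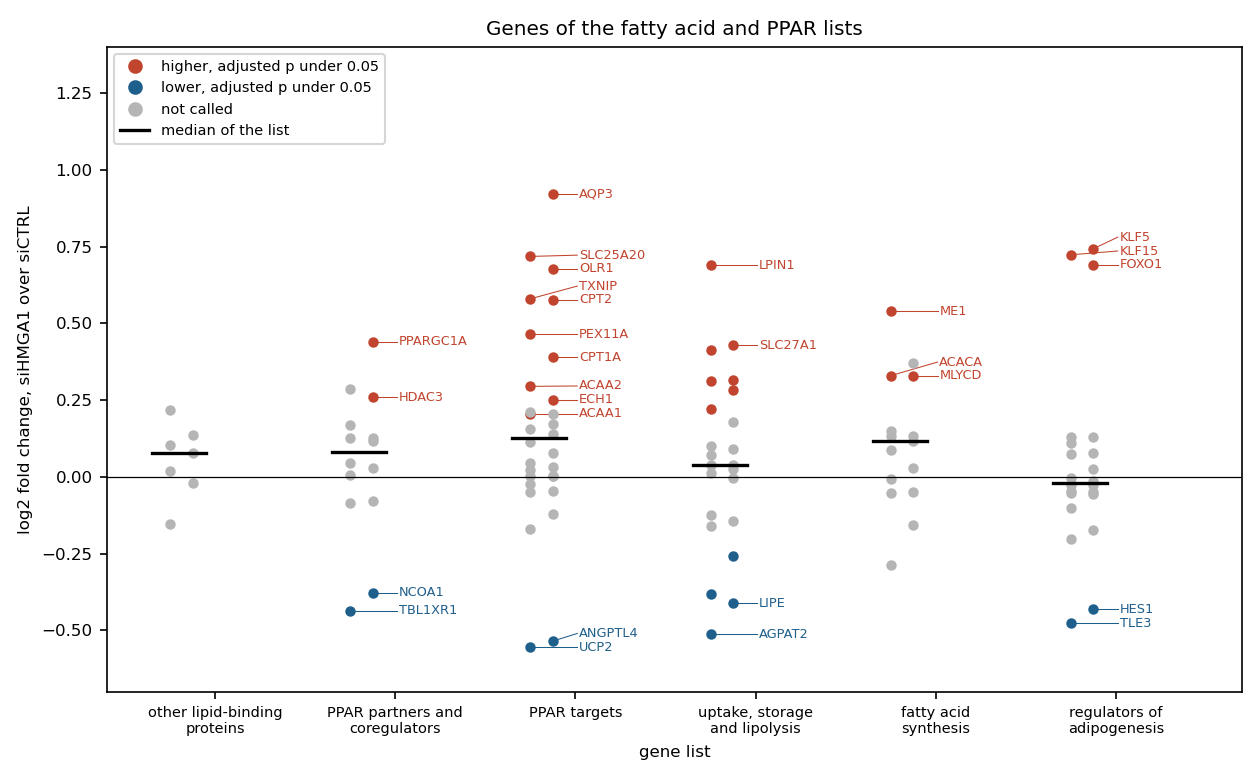
Log2 fold change (vertical axis, siHMGA1 over siCTRL) of the measured genes of 6 lists, with 1 point per gene, the median of the list as a bar and colours for the call at an adjusted p under 0.05. Most points lie near 0, and the PPAR target list has 10 genes called higher and 2 lower. Over all genes, 15.8% were called higher and 14.7% lower.

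FABP4 and CD36 also mark adipocytes, capillary endothelium and macrophages, so markers of these cells were read on the same arrays. The shares to set beside their calls are 15.8% of all genes called higher and 14.7% lower. Of 10 adipocyte markers, 5 were above background in siCTRL and 3 in siHMGA1. The 5 were LPL at 0.53, CIDEC at 0.43, PLIN1 at 0.14, GPD1 at 0.12 and RETN at 0.06 above it in siCTRL. The defining markers ADIPOQ and LEP stood at -2.73 and -1.61 relative to background in siCTRL. Only CIDEC, a lipid droplet protein, was called, with a rise of 0.28 (limma, adjusted p = 0.0230). The summed log2 signal of the 10 ran from 56.41 to 56.98 in siCTRL and from 56.43 to 57.89 in siHMGA1, so that these ranges overlapped. Of 7 endothelial markers, 3 were above background in siCTRL, ESAM by 3.09, PECAM1 by 2.04 and CLDN5 by 0.10. CDH5, VWF, TEK and TIE1 were under it. By limma 0 of the 7 were called in either direction, and 0 by the methods' t-test, with 1 higher at an unadjusted p under 0.05. Their sums were 42.28 to 44.10 in siCTRL and 43.25 to 43.89 in siHMGA1. Of 7 macrophage markers, 4 were above background, and PTPRC and CD163 were called higher from readings under background, with sums of 39.09 to 39.98 in siCTRL and of 39.90 to 40.69 in siHMGA1. Their part in the FABP4 difference was not tested.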

How the data were processed

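The deposited values were log2 signals per probe set, which the authors made from hgu133plus2 arrays with the Affymetrix Expression Console and RMA (background correction, quantile normalization and summarisation). The submitters list RMA and affy as tools. RMA removes differences in total signal between arrays and compresses low signals. Gene names came from the annotation of the platform, with symbols checked against RefSeq (GRCh38.p14). Of 54675 probe sets, 62 controls were left out, 41091 had 1 gene, 1801 several and 11721 none. The arrays were grouped by their labels, 4 per group. The methods give 4 replicates in one section and 3 in another, and all 8 arrays were used.

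The groups were compared with limma 3.58.1 in R 4.3.3 (lmFit and eBayes at default settings), with Benjamini-Hochberg adjustment over all probe sets, or over all 19775 genes with the probe set of highest mean for each gene, and calls were made at an adjusted p under 0.05. The steps were tested on simulated data. The 9 genes, the gene lists and the alternatives were chosen with earlier results of these data known. Named were all probe sets of the 9 genes, 7 set pathway genes, up to 4 genes of each list with the largest called change and up to 2 of the opposite direction, and the 5 genes closest to FABP4. A further 5 were added after their values were seen. Genes of the lists without a probe set of a single gene were not analysed here. Alternatives were a replicate block, centring on housekeeping genes, cyclic loess, a minimum mean of 6, a trended and robust fit, the methods' t-test, leaving out each array, other ways to represent a gene, an adjusted p under 0.01 and other background levels. Whether replicate numbers pair the arrays was checked by correlating deviations from the group means.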

Additional observations from a re-analysis of the deposited data

Results flagged for a closer look

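Each group of 4 arrays was searched for an array far from the other 3 (by Dixon's 95% limit on the gap to the nearest of them, as a share of the range), over the probe sets of the 9 genes and the named pathway genes. In all, 6 of 132 groups were past the limit, where chance gives about 1 in 20. For PPARA these were siHMGA1 replicate 3 on 223437_at, at 8.95 with the others at 8.85 to 8.86, and siHMGA1 replicate 1 on 244689_at, at 7.78 with the others at 7.53 to 7.56. RXRA was 10.07 in siHMGA1 replicate 2. UCP2 was 11.43 in siCTRL replicate 1, within the range of the siHMGA1 arrays. ECH1 was 10.71 in siHMGA1 replicate 2, and ACAA1 was 10.20 in siCTRL replicate 2.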

How the results depend on the processing

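Over 14 alternatives of the fit, 394 of 401 fold changes of the 30 probe sets moved by less than the spread between replicates. The 7 that moved further were all under centring on housekeeping genes, and 0 of the called ones changed sign. The count of probe sets called higher was 1 to 2 with an array left out. The count above background kept within 1.5 times under the other background levels. Centring on housekeeping genes gave 7 probe sets higher and 1 lower, 3 other lipid-binding proteins, 6 PPAR partners, 9 synthesis genes and 6 regulators higher, and 1 uptake and storage gene lower. Of all 19775 genes, it gave 5928 higher and 2050 lower. The methods' t-test gave 1 partner and 3 uptake and storage genes higher and 1 regulator lower. At an adjusted p under 0.01 there were 1 partner and 3 uptake and storage genes higher, and 2 uptake and storage genes and 1 regulator lower. With probe sets of a gene averaged, 1 partner was higher, and 1 partner, 2 uptake and storage genes and 1 synthesis gene were lower. Without probe sets named _s_at or _x_at, 1 partner was higher, and 1 target, 1 uptake and storage gene, 1 synthesis gene and 1 regulator were lower, and HES1 was at 0.026 (limma, adjusted p = 0.834) on a probe set under background. Cyclic loess gave 1 synthesis gene lower, and the trended and robust fit 2. With an array left out, partners higher numbered 1 to 3, targets higher 8 to 12, uptake and storage genes lower 2 to 4 and synthesis genes lower 0 to 1. Over all genes, 48.2% of calls were lower in the deposited values, 25.7% after centring on housekeeping genes and 53.8% after cyclic loess. Of the 9 housekeeping genes used for centring, 1 was called higher and 2 lower in the deposited values. With averaged probe sets, calls of PPARGC1A (0.21), NCOA1 (-0.10), LIPE (-0.24), ACACA (0.11), MLYCD (0.14) and ACAA2 (0.11) were lost, and the differences of DNAH12, GDPD1 and TMEM156 were smaller, at 0.98, 0.92 and 0.98. The cause of these differences was not tested. With the replicate number as a block, 2 probe sets were called higher, the second being PPARA 210771_at, which lies under background. The array titles carry the same experiment numbers in both groups. Deviations of arrays with the same number correlated at 0.0503, 0.217, 0.0661 and -0.141 over all probe sets. Only replicate 2 correlated best with its own number. Many of these probe sets lay under background, so the correlations cannot decide whether the arrays are paired.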
